A study of Homo sapiens with 12 samples.

Results

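The genes described here encode structural and regulatory proteins of the extracellular matrix and the receptors that bind cells to it. They are the genes of collagens, laminins, integrin subunits, fibronectin (FN1), SPARC, thrombospondins and the tissue inhibitors of metalloproteinases (TIMPs). They were chosen by their symbols, and a gene was kept where at least 10 counts were listed in at least 3 of the 12 libraries. Of 90 symbols that matched, 68 were kept, out of 26334 genes in the table, and all 68 passed the filter of the test across all genes, which left 12775 genes. The genes nearest the limit on the kept side were ITGB6, THBS4, COL4A6 and COL24A1, with 77 to 119 counts summed over the libraries. Just outside it lay COL22A1, COL4A4, COL14A1 and COL8A2, with 81 to 88 counts. The 22 genes left out included 2 with no count in any library, and none of the 22 exceeded 13 counts in a library.

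The cells, shA673-1c, derive from A673, a line of Ewing sarcoma, and in them doxycycline switches on a knockdown of the fusion oncogene EWS::FLI1. All 4 groups received 1 µg/ml doxycycline for 4 days and then 5 µM actinomycin D, which blocks transcription, for 0, 1, 2 or 4 h, with 3 biological replicates each, per the labels. The medium of every group also held blasticidin and zeocin. No library without doxycycline was analysed here, so all values describe cells under knockdown, and the 0 h libraries are the reference for the blocked ones.

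Collagens are trimers of alpha chains. Fibril-forming collagens build the tensile fibres of connective tissue, whereas type IV collagen and the laminins, which are trimers of an alpha, a beta and a gamma chain, build the basement membrane sheet. Fibronectin is deposited as fibrils by cells through integrins, receptors made of an alpha and a beta subunit that connect the matrix to the cytoskeleton. Once new transcription is blocked, the abundance of an mRNA follows its loss, and a long-lived mRNA takes a growing share of the counts as others disappear.

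Elements in the 3′ untranslated region (UTR) of an mRNA take part in setting how fast it is lost, and collagen mRNAs are known targets of the miR-29 family. These miRNAs are shown because their seed match is common in the collagens described here, with the seed, bases 2 to 8, in capitals (RefSeq, GRCh38.p14). All 3 share the same seed.
hsa-miR-29a-3p: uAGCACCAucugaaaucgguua
hsa-miR-29b-3p: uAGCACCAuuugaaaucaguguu
hsa-miR-29c-3p: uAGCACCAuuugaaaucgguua

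The letters that pair with this seed, TGGTGCT, were searched on the sense strand of the 3′ UTR of each gene in the GENCODE 29 annotation of GRCh38. They occurred in 26 of the 68 genes (38.2%), against 15.7% of the 11591 tested genes with a UTR. Among the 30 collagens the share was 66.7% (20 genes), although the median UTR was 1027.5 bases in the collagens and 1179 bases over all tested genes. Of the laminins 3 of 10 held the match, of the integrins 2 of 19, and of the other 9 genes SPARC alone. Sites from the collagens with the largest roles in the results are shown, with the match in capitals and coordinates in GRCh38.
COL1A1 (chr17:50184565-50184587, minus strand): ggaatcacTGGTGCTatagaaat
COL1A2 (chr7:94430905-94430927, plus strand): aatgttgaTGGTGCTagaagaat
COL3A1 (chr2:189012008-189012030, plus strand): tgtctcaaTGGTGCTataataaa
COL4A1 (chr13:110150319-110150341, minus strand): tcacaacaTGGTGCTacttcttc
COL4A2 (chr13:110512211-110512233, plus strand): ggccatttTGGTGCTtattctta
COL5A1 (chr9:134843334-134843356, plus strand): atgaaaatTGGTGCTtatttttt
COL6A2 (chr21:46132594-46132616, plus strand): cccgtccaTGGTGCTaagcgggc
COL7A1 (chr3:48564315-48564337, minus strand): cctcccctTGGTGCTagaggctt
The sites of COL4A1 and COL4A2 began 30 and 28 bases after the stop codon. COL5A1 held 4 matches, COL5A3 held 3, and COL3A1, COL7A1, COL11A1 and COL21A1 held 2 each. A match of letters is not a functional site, and no miRNA was measured in these libraries.

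The other element searched was the AU-rich nonamer TTATTTATT, which contains the pentamer ATTTA of AU-rich elements. It was present in 5 of the 68 genes (7.35%), against 9.01% of all tested genes with a UTR. The sites below come from the 5 genes that held it, with the nonamer in capitals.
THBS1 (chr15:39596504-39596528, plus strand): aatacagaTTATTTATTaactctgt
ITGB1 (chr10:32900411-32900435, minus strand): tactgaagTTATTTATTaaatatgc
COL3A1 (chr2:189011868-189011892, plus strand): aattccagTTATTTATTtccaaaat
COL8A1 (chr3:99798568-99798592, plus strand): cttccaacTTATTTATTggttgtca
COL12A1 (chr6:75084364-75084388, minus strand): gccttataTTATTTATTtctgaaac

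Total counts lay between 9381855 and 10929000 per library. The 68 genes took 7.06% ± 0.673 of all counts at 4 h, against 5.79% ± 0.686 at 0 h (SD, n = 3 each), and FN1 alone took 3.39% ± 0.265 at 4 h, against 2.60% ± 0.258 at 0 h. Levels below are CPM, counts scaled to a common library size by TMM, listed in the order of replicates 1, 2 and 3. Of 5 measured markers of the Ewing sarcoma line, FLI1, NR0B1 and NKX2-2 fell at 4 h, EWSR1 rose and STEAP1 did not pass the test, while CD99, a defining surface marker of Ewing sarcoma, was listed at 0 in every library. How the counting treated CD99 is not given in the sources used here, so this 0 does not show that its mRNA was absent. The 17 markers of blood, epithelium, endothelium, liver and muscle in the table summed to 59.0 to 78.8 CPM at 4 h and 55.7 to 72.2 CPM at 0 h, with 2 of them at 0 throughout. Of these, 7 were tested, HBB fell, KRT8 rose, and their part in the results below was not tested.

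After 4 h of actinomycin D, 37 of the 68 matrix and integrin genes were higher than at 0 h relative to the other mRNAs and 0 were lower (edgeR's quasi-likelihood test, adjusted p under 0.05 over all 12775 genes). Of all tested genes 23.3% were called higher and 24.6% lower. No matrix or integrin gene was lower at an unadjusted p under 0.05 either, against 3453 of all tested genes. DESeq2 called 37 higher and 0 lower, and its shares of all tested genes are not given here. The rises were small, with a median of 1.42-fold and a range of 1.21 to 1.76-fold outside LAMA1, whose 6.59-fold value rests on few counts. The median log2 change over the 68 genes was 0.40, against 0.05 over all tested genes, whose 5th and 95th percentiles were -1.79 and 0.59. The libraries at 4 h lay above all 3 at 0 h in 39 of the 68 genes (57.4%, against 27.9% of all tested genes) and below them in 0 (against 27.5%).

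These rises are relative to the library. Libraries were also scaled to the mRNAs of 73 cytosolic ribosomal proteins, which are long-lived. The median of all tested genes then moved by -0.36 on the log2 scale. At 4 h 0 of the 68 genes were called in either direction (all genes 1.28% higher and 44.8% lower). At an unadjusted p under 0.05 edgeR had 5 higher and 1 lower, against 260 higher and 6296 lower of all tested genes. The median of the 68 genes lay above that of all tested genes by 0.34 to 0.35 under TMM, library totals and ribosomal protein scaling. A change of scaling moves all genes by nearly the same amount, so this difference could not depend on it and is no test. With library totals alone 21 genes were higher and 0 lower (all genes 10.5% and 31%). Of the 65 genes with a log2 change above 0 under TMM, 24 lay below 0 under ribosomal protein scaling, 4 of them among the 37 called, and 7 lay below 0 under library totals, 0 of them called.

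The same-numbered replicates of different times were alike, and with the replicate number as a block 48 of the 68 genes were higher and 0 lower at 4 h (all genes 34.8% higher and 30.8% lower). The 37 genes were all among these 48. The 11 genes called only with the block were COL1A2, COL3A1, COL5A1, COL5A3, COL6A3, COL9A2, COL11A1, COL21A1, COL27A1, LAMA4 and ITGA6, and each was higher at 4 h in 3 of 3 replicates. Of the 20 genes that neither fit called, 13 had under 5 CPM at 0 h. The others included COL1A1, LAMB3, THBS1, TIMP3, ITGA2 and ITGB8.

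**Figure D1:**
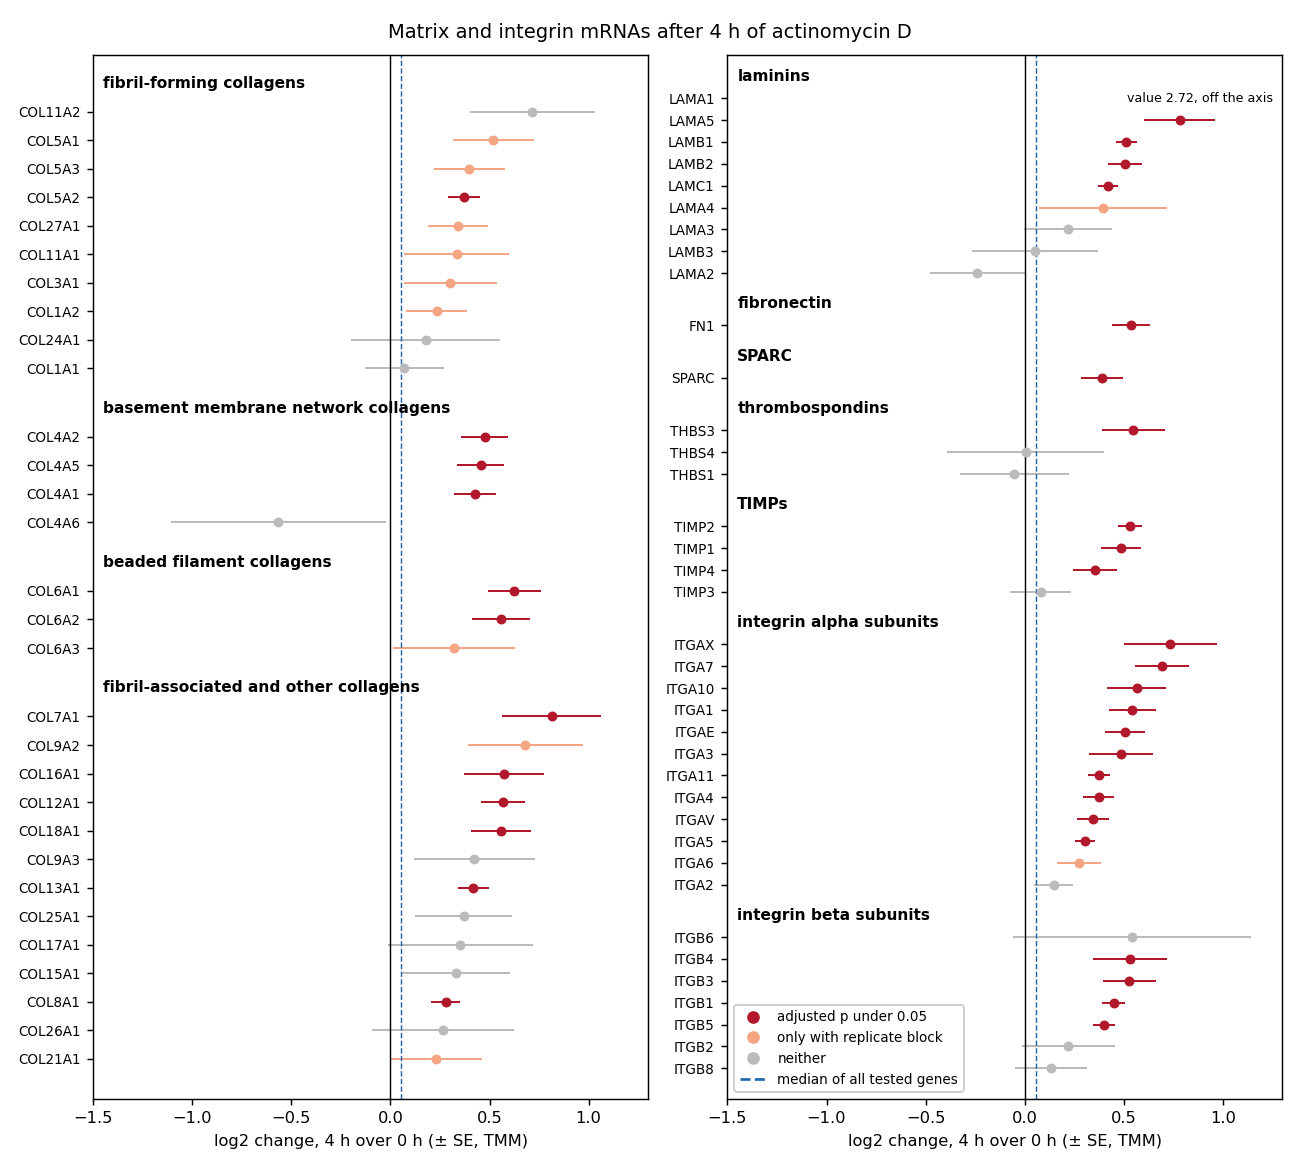
Log2 change at 4 h over 0 h for 67 of the 68 genes, grouped by role, with horizontal bars for the SE of the edgeR fit under TMM scaling. Colours mark genes called by the fit without a block, genes called only with the replicate block and genes called by neither, and the dashed line is the median of all tested genes at 0.05. Of the 67 genes 64 lie above 0, and LAMA1 at 2.72 is off the axis.

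**Figure D2:**
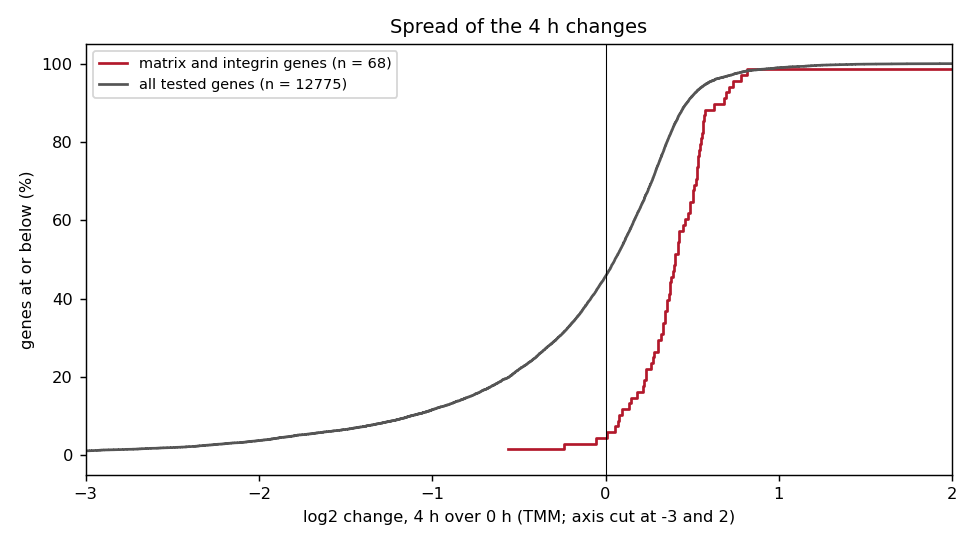
Cumulative share of genes (y, %) at or below a given log2 change at 4 h over 0 h (x, TMM scaling), for the 68 matrix and integrin genes and all 12775 tested genes. The curve of all tested genes has a long lower tail that reaches past -1.79 at the 5th percentile, whereas the lowest of the 68 genes, COL4A6, lies at -0.56.

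Among the 10 fibril-forming collagen genes, COL5A2 rose at 4 h, 0 fell, and 6 more passed only with the replicate block. The class had a median log2 change of 0.34, which was -0.02 under ribosomal protein scaling. COL5A2, a chain of the type V collagen that is built into type I fibrils, had 1574, 1708 and 1811 CPM at 4 h, against 1256, 1259 and 1421 CPM at 0 h (log2 change 0.37, SE 0.08, edgeR adjusted p = 0.00197). All 3 libraries at 4 h lay above those at 0 h. COL5A1, the partner chain, had 2074, 2444 and 3112 CPM at 4 h, against 1369.5, 1745 and 2209 CPM at 0 h. It was higher in every replicate, but the groups overlapped because the replicates differed, and its log2 change of 0.52 (SE 0.20) missed the threshold (edgeR adjusted p = 0.0509) and passed with the block (adjusted p = 1.03e-13).

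The chains of type I collagen, the main collagen of tendon and bone, did not pass the test. COL1A1 had 5591, 6519 and 7979 CPM at 4 h, against 4834, 6263 and 8030.3 CPM at 0 h. The groups overlapped almost wholly, and replicate 3 was the highest at both times and replicate 1 the lowest. The log2 change was 0.07 (SE 0.20, edgeR adjusted p = 0.793, with the block 0.0959), and it was -0.08 under library totals and -0.29 under ribosomal protein scaling. COL1A2, which encodes the other chain of the heterotrimer, had 903, 916 and 1125 CPM at 4 h, against 737, 747 and 1021 CPM at 0 h, a log2 change of 0.23 (SE 0.15, edgeR adjusted p = 0.231) that passed with the block (adjusted p = 2.99e-07). COL3A1, the homotrimeric collagen of elastic tissues, had 2831, 3358 and 4619 CPM at 4 h, against 2307, 2633 and 3821 CPM at 0 h. Its log2 change of 0.30 (SE 0.24, adjusted p = 0.315) also passed with the block (edgeR adjusted p = 2.37e-10), and each replicate was higher at 4 h although the groups overlapped. COL11A2, at 0.705 to 2.02 CPM over both times, had a log2 change of 0.71 (SE 0.32) that neither fit called at 4 h, although its slope per hour passed the threshold (0.19, edgeR adjusted p = 0.0436).

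Of the 4 tested chains of type IV collagen, which forms the basement membrane network, 3 rose and COL4A6 did not pass the test (median log2 change 0.44, and 0.08 under ribosomal protein scaling). COL4A1 had 1464, 1665 and 1826 CPM at 4 h, against 1106, 1205 and 1377 CPM at 0 h (log2 change 0.43, SE 0.11, edgeR adjusted p = 0.00505). COL4A2, whose product joins that of COL4A1 in the commonest type IV trimer, had 1209.9, 1333 and 1498 CPM at 4 h, against 835, 937 and 1134 CPM at 0 h (log2 change 0.48, SE 0.12, edgeR adjusted p = 0.00524). In both genes the libraries at 4 h lay above all of those at 0 h. COL4A5, a minor chain known from Alport syndrome, was present at fewer counts, with 25.3, 29.5 and 31.6 CPM at 4 h, against 22.3, 18.7 and 22.0 CPM at 0 h, and rose 1.37-fold (edgeR adjusted p = 0.00665). COL4A6 was at the edge of detection, with 0.680, 0.627 and 0.742 CPM at 4 h, against 1.61, 0.754 and 0.705 CPM at 0 h, and its log2 change of -0.56 had an SE of 0.54.

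The beaded filament collagens were represented by the 3 chains of type VI collagen, which anchors cells to the surrounding matrix (median log2 change 0.56, and 0.20 under ribosomal protein scaling). COL6A1 rose 1.54-fold, with 1317, 1467 and 1516 CPM at 4 h, against 743, 983 and 1059.7 CPM at 0 h (log2 change 0.63, SE 0.13, edgeR adjusted p = 0.00196). COL6A2 rose 1.47-fold, with 1374, 1521 and 1596 CPM at 4 h, against 805, 1065 and 1177 CPM at 0 h (log2 change 0.56, SE 0.15, edgeR adjusted p = 0.00693). The libraries of the 2 times did not overlap in either gene. COL6A3 had 552, 735 and 976 CPM at 4 h, against 420.4, 541 and 849.6 CPM at 0 h, so that replicate 3 at 0 h exceeded replicates 1 and 2 at 4 h, and its log2 change of 0.32 (SE 0.31, edgeR adjusted p = 0.415) passed with the block (adjusted p = 3.41e-09) and was -0.04 under ribosomal protein scaling.

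Of the 13 other collagens 6 rose and 0 fell (median log2 change 0.42, and 0.06 under ribosomal protein scaling). COL7A1, the collagen of the anchoring fibrils under epithelia, had 143, 193 and 249.6 CPM at 4 h, against 84.1, 109.7 and 139 CPM at 0 h, a rise of 1.76-fold (log2 change 0.81, SE 0.25, edgeR adjusted p = 0.0169). All 3 libraries at 4 h exceeded those at 0 h, the lowest of them narrowly, and the call was lost without 0 h replicate 1 (adjusted p = 0.0667) or 4 h replicate 3 (edgeR adjusted p = 0.0777). COL12A1, a fibril-associated collagen, had 1142, 1141 and 954 CPM at 4 h, against 808, 734 and 644 CPM at 0 h (log2 change 0.57, SE 0.11, edgeR adjusted p = 0.0011). COL16A1, another of that kind, had 169, 211 and 251 CPM at 4 h, against 109, 141 and 174 CPM at 0 h, with overlapping groups, and its log2 change of 0.57 (edgeR adjusted p = 0.0321) missed the threshold without 0 h replicate 1 or 2 or 4 h replicate 2 or 3 (adjusted p from 0.0702 to 0.124). The membrane-spanning COL13A1 rose 1.34-fold (edgeR adjusted p = 0.000788), with 64.8, 56.6 and 62.0 CPM at 4 h, against 43.8, 43.5 and 50.0 CPM at 0 h. COL18A1, the precursor of endostatin, rose 1.47-fold to 256 ± 23.9 CPM at 4 h, against 174 ± 31.7 CPM at 0 h (SD, n = 3 each). COL8A1, a short-chain collagen, rose 1.21-fold to 202 ± 12.7 CPM at 4 h, against 167 ± 11.1 CPM at 0 h (SD, n = 3 each).

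The beta 1 and gamma 1 chains, which are shared by many laminin trimers, rose with little spread, as did LAMB2. LAMA5 rose with a wider spread and LAMA1 was called on few counts, so that 5 of 10 genes rose and 0 fell (median log2 change 0.41, and 0.05 under ribosomal protein scaling). LAMB1 had 1216, 1152 and 1194 CPM at 4 h, against 860.4, 809.9 and 828 CPM at 0 h (log2 change 0.51, SE 0.05, edgeR adjusted p = 5.25e-06). LAMC1 had 1104, 1091 and 1043 CPM at 4 h, against 811, 779 and 831 CPM at 0 h (log2 change 0.42, SE 0.05, edgeR adjusted p = 2.81e-05). In both the replicates at a given time were within a narrow band, and the bands were well apart.

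LAMA5, the alpha chain of laminins in many adult basement membranes, rose 1.72-fold, with 248, 253 and 304 CPM at 4 h, against 124, 149.9 and 194 CPM at 0 h (log2 change 0.78, SE 0.18, edgeR adjusted p = 0.0031). LAMB2 had 163, 143 and 149 CPM at 4 h, against 107, 105 and 108 CPM at 0 h (log2 change 0.51, SE 0.09, edgeR adjusted p = 0.000378). LAMA4, an alpha chain of vessel and muscle laminins, had 22.8, 28.1 and 43.3 CPM at 4 h, against 18.7, 18.2 and 34.6 CPM at 0 h, and its log2 change of 0.40 (SE 0.32) passed only with the block (edgeR adjusted p = 0.000112). LAMA3 and LAMB3, chains of epithelial laminin, did not pass the test, with a log2 change of 0.22 (SE 0.22) for LAMA3 and 0.05 (SE 0.32) for LAMB3. LAMA1, which falls outside the rule for naming and is given because it passed the test (adjusted p = 0.0468), had 0.453, 2.09 and 3.08 CPM at 4 h and 0.189, 0.566 and 0.0881 CPM at 0 h, and these overlapped.

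FN1 was the most abundant of the 68 mRNAs per kilobase of transcript and rose steadily. It had 23421, 23976 and 27867 CPM at 0 h, 25244, 26396 and 29277 CPM at 1 h, 28821, 31020.2 and 33674 CPM at 2 h and 34315, 35935 and 38852 CPM at 4 h. Every replicate was higher at each later time, and the libraries at 4 h lay above all of those at 0 h (log2 change 0.54, SE 0.09, edgeR adjusted p = 0.000466). The log2 change was 0.39 under library totals and 0.17 (edgeR adjusted p = 0.133) under ribosomal protein scaling.

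SPARC, a collagen-binding glycoprotein of remodelling matrix, had 2782, 2975 and 3429.8 CPM at 4 h, against 2115, 2271 and 2624 CPM at 0 h (log2 change 0.39, SE 0.10, edgeR adjusted p = 0.00809). Of the TIMPs, which block matrix metalloproteinases, 3 of 4 rose (median log2 change 0.42, and 0.06 under ribosomal protein scaling). TIMP2 had 1394, 1417 and 1475 CPM at 4 h, against 947, 973 and 1043 CPM at 0 h (log2 change 0.53, SE 0.06, edgeR adjusted p = 1.32e-05). TIMP1 had 621, 702 and 683 CPM at 4 h, against 431, 497 and 504 CPM at 0 h (log2 change 0.49, SE 0.10, edgeR adjusted p = 0.00149). TIMP4 was less abundant per kilobase and rose 1.28-fold, with 24.6, 22.0 and 20.7 CPM at 4 h, against 17.2, 17.5 and 17.8 CPM at 0 h (edgeR adjusted p = 0.0184), a call lost without 0 h replicate 1 or 2 or 4 h replicate 1 (adjusted p from 0.0538 to 0.0787). TIMP3, which unlike the others binds tightly to the matrix, had 82.4, 87.2 and 72.7 CPM at 4 h, against 75.5, 86.4 and 67.4 CPM at 0 h. These groups overlapped (log2 change 0.08, SE 0.15, edgeR adjusted p = 0.697), and the change was -0.07 under library totals and -0.29 under ribosomal protein scaling.

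Of the thrombospondins, calcium-binding matrix proteins that regulate adhesion, THBS3 rose and the other two did not pass the test. THBS3 had 158, 153 and 193 CPM at 4 h, against 99.1, 102 and 143 CPM at 0 h (log2 change 0.55, SE 0.16, edgeR adjusted p = 0.0129), and its call was lost without 0 h replicate 1 or 2 or 4 h replicate 3 (adjusted p from 0.0504 to 0.0558). THBS1, an inhibitor of vessel growth and activator of TGF-beta, had 919.7, 949.5 and 658 CPM at 4 h, against 1009, 1034 and 577 CPM at 0 h. Replicate 3 was the lowest at both times and was higher at 4 h, whereas replicates 1 and 2 were lower at 4 h (log2 change -0.05, SE 0.28, edgeR adjusted p = 0.891). THBS4 lay at 0.566 to 1.15 CPM over both times, with a log2 change of 0.01 (SE 0.40).

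Of the 19 integrin subunits 14 rose and 0 fell, 10 of 12 alpha and 4 of 7 beta subunits. The median log2 change was 0.45 and was 0.08 under ribosomal protein scaling. ITGB1, the beta subunit shared by the receptors for collagen, laminin and fibronectin, had 1537, 1566 and 1426 CPM at 4 h, against 1129, 1088 and 1104 CPM at 0 h (log2 change 0.45, SE 0.06, edgeR adjusted p = 4.69e-05). ITGA5, which joins ITGB1 in the main fibronectin receptor, had 1182, 1155 and 1146 CPM at 4 h, against 940.1, 943 and 937 CPM at 0 h (log2 change 0.30, SE 0.05, edgeR adjusted p = 0.000265). Its libraries differed little within a time, and the change was -0.06 under ribosomal protein scaling. ITGAV, a subunit of several receptors for the RGD motif, had 402, 464 and 443 CPM at 4 h, against 315, 350.5 and 366 CPM at 0 h (log2 change 0.34, SE 0.08, edgeR adjusted p = 0.00402), a change that was -0.02 under ribosomal protein scaling.

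ITGB5 and ITGB3, both partners of ITGAV, rose as well. ITGB5 had 464, 444 and 442 CPM at 4 h, against 342, 339.8 and 342 CPM at 0 h (log2 change 0.40, SE 0.06, edgeR adjusted p = 7.02e-05). ITGB3 had 10.2, 8.58 and 8.38 CPM at 4 h, against 6.52, 6.22 and 6.08 CPM at 0 h, a rise of 1.44-fold (edgeR adjusted p = 0.00592). In both genes the libraries at 4 h lay above all of those at 0 h.

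Among the collagen-binding alpha subunits, ITGA11 had 366, 377 and 348 CPM at 4 h, against 270.1, 289.6 and 281 CPM at 0 h (log2 change 0.38, SE 0.05, edgeR adjusted p = 0.000108). ITGA1 rose 1.46-fold and ITGA10 1.48-fold, while ITGA2 had a log2 change of 0.15 (SE 0.10) that did not pass. Among those that bind laminin, ITGA7 had 29.5, 25.8 and 21.2 CPM at 4 h, against 16.8, 16.9 and 13.7 CPM at 0 h, a rise of 1.62-fold (edgeR adjusted p = 0.00107), and ITGA3 rose 1.4-fold. ITGA6 missed the threshold at a log2 change of 0.27 (SE 0.11, edgeR adjusted p = 0.0569) and passed with the block (adjusted p = 4.05e-05). ITGAX, best known from myeloid cells, had 12.7, 7.95 and 8.06 CPM at 4 h, against 5.95, 6.41 and 4.85 CPM at 0 h (log2 change 0.74, SE 0.23, edgeR adjusted p = 0.0202), and its call was lost without 0 h replicate 3 (0.61, adjusted p = 0.0748) or 4 h replicate 1 (log2 change 0.48, adjusted p = 0.109).

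The rises built up with time. At 1 h edgeR called 0 of the 68 genes in either direction (all genes 0.172% higher and 1.16% lower). DESeq2 also called 0, and its shares of all tested genes are not given here. At an unadjusted p under 0.05 edgeR had 3 higher and 0 lower, against 355 higher and 856 lower of all 12775 tested genes. Scaling to library totals (all genes 0.18% higher and 1.17% lower) or ribosomal protein mRNAs (0.125% and 0.916%) gave 0 calls as well. With the replicate block 8 were higher at 1 h (all genes 2.52%) and 0 lower (all genes 6.28%), namely COL7A1, COL12A1, COL16A1, LAMA5, LAMB1, LAMB2, FN1 and THBS3. COL7A1 had 84.1, 109.7 and 139 CPM at 0 h, 112, 161 and 214 CPM at 1 h, 119, 143 and 164 CPM at 2 h and 143, 193 and 249.6 CPM at 4 h. Its level in replicates 2 and 3 was higher at 1 h than at 2 h.

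At 2 h 10 of the 68 genes were higher (14.7%, against 3.39% of all tested genes) and 0 lower (against 11.7%), namely COL12A1, LAMB1, LAMC1, FN1, TIMP2, ITGA1, ITGA4, ITGAE, ITGAV and ITGB1. That count was 4 without 0 h replicate 1, 3 without 0 h replicate 2, 2 without 2 h replicate 2 and 5 without 2 h replicate 3. The shares of all tested genes with 1 library left out are not given here. With the replicate block the count was 31 (all genes 15.9% higher and 19.5% lower). It was 4 under library totals (all genes 1.12% higher and 13.8% lower) and 0 under ribosomal protein scaling (all genes 0.196% higher and 17.1% lower). Under the latter edgeR had 1 higher and 1 lower at an unadjusted p under 0.05 (all tested genes 117 and 3283). ITGA4, a receptor for fibronectin and VCAM1, had 127, 133 and 140.3 CPM at 0 h, 139.8, 124 and 151 CPM at 1 h, 152, 173 and 173 CPM at 2 h and 171, 177 and 171 CPM at 4 h. Its level at 2 h was thus already near that at 4 h. ITGA5 had 998, 1001 and 933 CPM at 1 h and 942, 944 and 942 CPM at 2 h, against 940.1, 943 and 937 CPM at 0 h. At 2 h it was thus close to its 0 h level in each replicate, and its rise appeared between 2 and 4 h.

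Over all 4 times the slope of log2 expression per hour was above 0 and past the threshold in 41 of the 68 genes (all genes 25.3%) and below 0 in 0 (all genes 25.5%). With the replicate block 50 slopes were above 0 (all genes 33% above and 29% below). With library totals 25 were (all genes 10.6% and 31.9%), and with ribosomal protein scaling 0 passed in either direction (all genes 0.54% and 47%). Under the latter edgeR had 4 above and 2 below at an unadjusted p under 0.05 (all tested genes 134 and 6583). The median slope in the main fit was 0.10 per hour, against 0.02 over all tested genes. LAMB1 had a slope of 0.13 per hour (SE 0.01), FN1 of 0.14 (SE 0.02) and COL1A1 of 0.01 (SE 0.04).

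**Figure D3:**
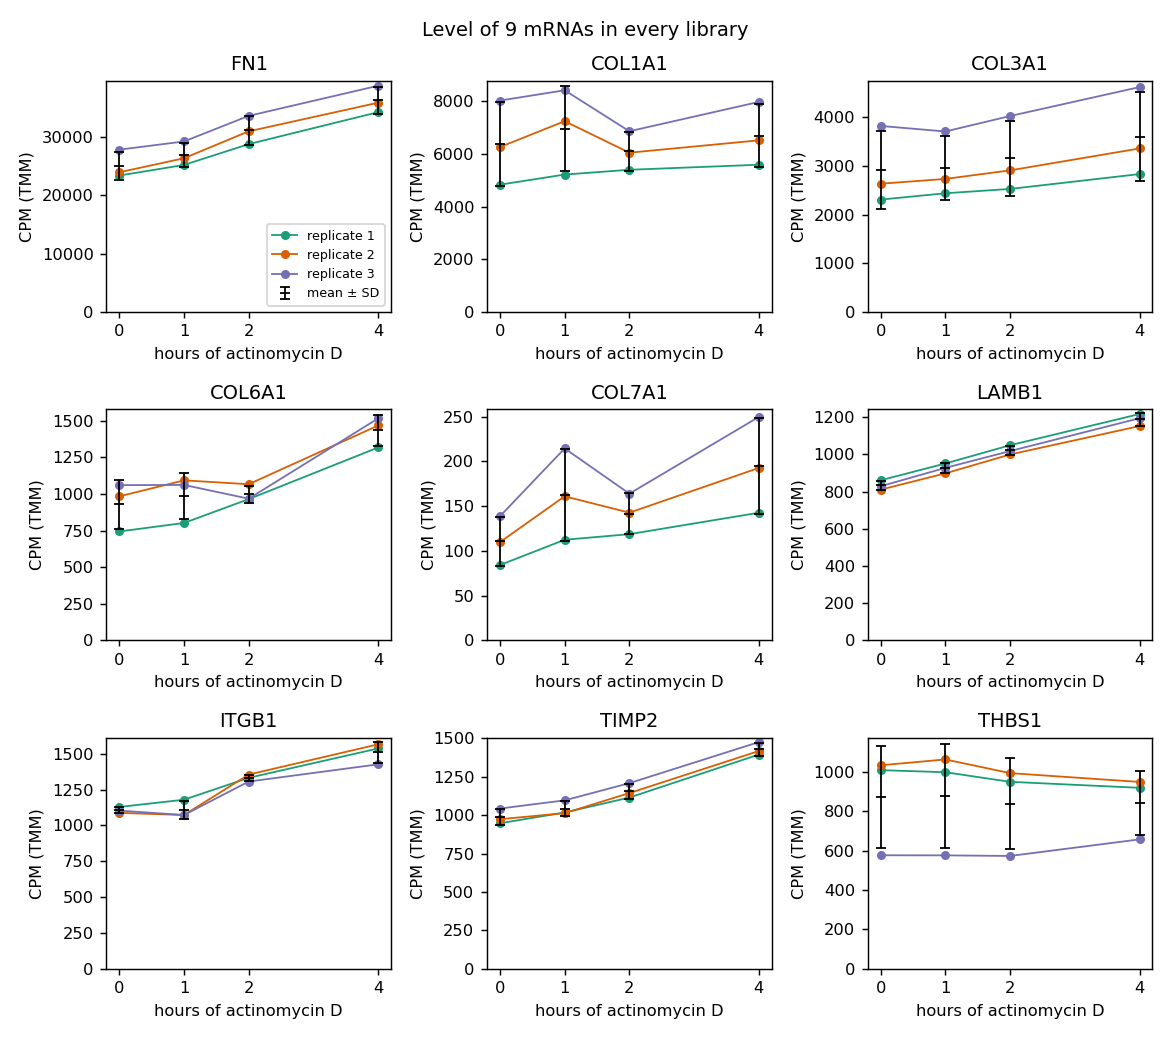
CPM (TMM scaling, y) of 9 mRNAs against hours of actinomycin D (x), with a line for each replicate and black bars for the mean ± SD of 3 replicates. FN1, LAMB1 and TIMP2 climb in every replicate from each time to the next, ITGB1 climbs after 1 h, COL1A1 and COL3A1 keep replicate 3 on top at each time, and THBS1 keeps replicate 3 lowest.

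Ratios of 2 mRNAs within a library do not depend on how the library is scaled. The pairs below were chosen after the values were seen and are given as values, with no test. The count ratio of COL1A1 to COL1A2, whose chains join in a trimer, was 6.19, 7.12 and 7.09 at 4 h, against 6.56, 8.38 and 7.87 at 0 h, lower in 3 of 3 replicates. The ratio of COL6A3 to COL6A1 was 0.419, 0.501 and 0.644 at 4 h, against 0.566, 0.550 and 0.802 at 0 h. The ratio of COL6A2 to COL6A1 moved less, to 0.963, 0.957 and 0.948 times that at 0 h, and was also lower in 3 of 3 replicates.

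The count ratio of LAMB1 to LAMC1 at 4 h was 1.04, 1.02 and 1.15 times that at 0 h, and that of ITGA5 to ITGB1 was 0.924, 0.850 and 0.946 times. The mRNA of the fibronectin receptor's alpha subunit was thus lower at 4 h relative to that of its beta partner in 3 of 3 replicates. COL1A1 moved to 0.789, 0.694 and 0.713 times its 0 h ratio to FN1, THBS1 to 0.622, 0.613 and 0.818 times its ratio to FN1 and 0.573, 0.610 and 0.847 times its ratio to THBS3, and TIMP3 to 0.741, 0.693 and 0.763 times its ratio to TIMP2. For COL4A1 over COL4A2 and ITGAV over ITGB5 the ratio at 4 h was lower in 2 of 3 replicates.

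**Figure D4:**
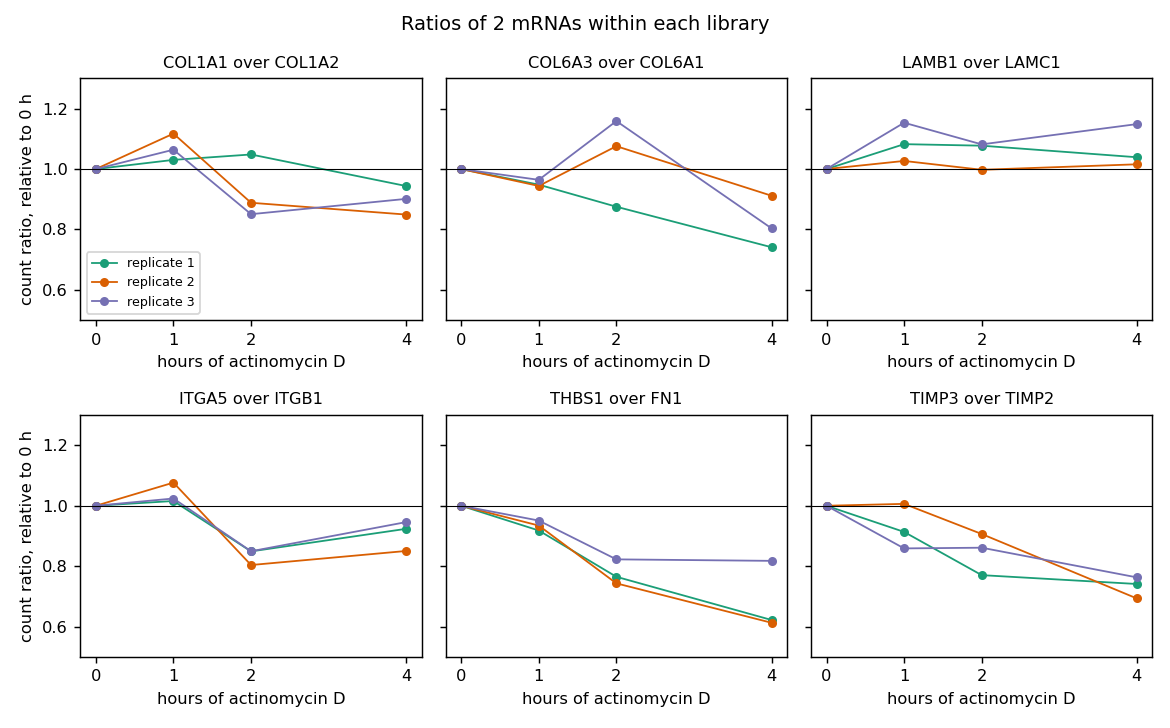
Count ratio of 2 mRNAs in each library divided by that ratio at 0 h of the same replicate (y), against hours of actinomycin D (x), with a line for each replicate. At 4 h the 3 lines lie below 1 for COL1A1 over COL1A2, COL6A3 over COL6A1, ITGA5 over ITGB1, THBS1 over FN1 and TIMP3 over TIMP2, and above 1 for LAMB1 over LAMC1.

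Part of the spread was shared by libraries of the same replicate number. Replicate 3 had the highest level at all 4 times in 21 of the 68 genes (30.9%, against 15.8% of all tested genes) and the lowest in 10 (14.7%, against 15.1%). Its level relative to the mean of replicates 1 and 2 was 1.65 to 1.89 over the 4 times for LAMB3, 1.59 to 1.88 for LAMA4, 1.52 to 1.77 for COL6A3, 1.43 to 1.55 for COL3A1 and 1.20 to 1.45 for COL1A1. For THBS1 it was 0.56 to 0.70. The labels give no reason for this difference. Without replicate 3 at every time, an alternative chosen after the data were seen, 43 genes were higher at 4 h and 0 lower. The share of all tested genes called in that setting is not given here, so this count is not compared with that of the main fit. Without replicate 3 THBS1 had a negative slope past the threshold (-0.04 per hour, edgeR adjusted p = 0.0400).

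The changes at 4 h were set against the 3′ UTR elements shown above, as a description chosen after the values were seen. The 20 collagens with a miR-29 seed match had a median log2 change of 0.34, against 0.49 in the 10 without one. The direction was the same over all tested genes with a UTR, with medians of -0.04 with the match and 0.08 without it. Among the collagens without a match, COL9A2, COL9A3, COL11A2, COL17A1, COL25A1 and COL26A1 had under 5 CPM at 0 h. None of these was called at 4 h in the fit without a block. Among those with a match, COL4A6, COL15A1 and COL24A1 were as low. Neither level nor UTR length was taken into account in the comparisons by seed match. Among the 68 genes the median was 0.52 with no ATTTA pentamer in the UTR (20 genes) and 0.42 with 1 to 2 (21 genes). With 3 to 5 it was 0.37 (13 genes) and with 6 or more 0.31 (14 genes). Over all tested genes with a UTR the medians of the same classes were 0.24, 0.09, -0.06 and -0.10. Longer UTRs hold more pentamers, and the median UTR length was 365.5 bases in the first class and 2946 bases in the last. Spearman's rho of the pentamer number with the log2 change was -0.28 over the 68 genes and -0.28 over the 11591 tested genes, and that of UTR length was -0.20 and -0.25, over points that come from the same 12 libraries. Over the 53 matrix and integrin genes with at least 5 CPM at 0 h, rho was -0.48 for the pentamer number and -0.35 for UTR length. That limit was not applied to all tested genes, so these 2 values are not compared with those over all genes. Of the 5 genes with the nonamer, COL8A1, COL12A1 and ITGB1 rose, COL3A1 passed only with the block and THBS1 passed with neither.

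**Figure D5:**
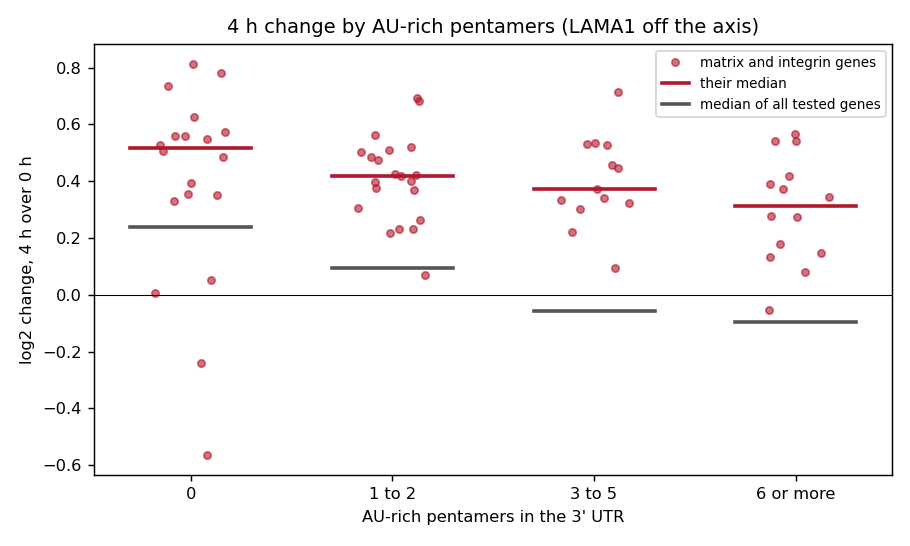
Log2 change at 4 h over 0 h (y, TMM scaling) of the 68 genes in classes of the number of ATTTA pentamers in the 3′ UTR (x), with red lines for the median of the 68 genes and grey lines for the median of all tested genes in the class. The red medians go down from 0.52 to 0.31 and the grey ones from 0.24 to -0.10, and the point of LAMA1 at 2.72 is off the axis.

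Levels between genes were compared as CPM per kilobase of the GENCODE transcript. At 4 h FN1 stood at 4605 ± 291 CPM per kilobase, against 3177 ± 307 at 0 h (SD, n = 3 each). COL1A1 came next, with 995 ± 179 CPM per kilobase at 4 h and 948 ± 238 at 0 h, followed by SPARC with 827 ± 89.9 at 4 h and 631 ± 70.4 at 0 h. TIMP1 had 749.9 ± 47.5 CPM per kilobase at 4 h and 535 ± 44.8 at 0 h, and COL3A1 had 649.9 ± 166 at 4 h and 527 ± 144 at 0 h. The order of these 5 was the same at both times, although the values of COL1A1, SPARC, TIMP1 and COL3A1 lay within their joint spread of each neighbour at 4 h. The most abundant integrin subunit was ITGB1, at 399 ± 19.5 CPM per kilobase at 4 h and 293 ± 5.46 at 0 h.

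Genes that make, cross-link or remodel the matrix were counted in the same fit at 4 h, where 23.3% of all tested genes were higher and 24.6% lower. Under ribosomal protein scaling those shares were 1.28% and 44.8%, and the median log2 change of all tested genes was -0.31, against 0.05 under TMM. Of 28 enzymes and chaperones of collagen synthesis 18 rose and 1 fell (median log2 change 0.41, and 0.05 under ribosomal protein scaling, where 1 rose and 4 fell). BMP1, the protease that trims procollagen, rose 1.6-fold, with 288, 304 and 317 CPM at 4 h, against 177, 196 and 197 CPM at 0 h, and stayed higher under ribosomal protein scaling (log2 change 0.31). P4HB, a subunit of prolyl 4-hydroxylase, rose 1.37-fold and PLOD3, a lysyl hydroxylase, 1.4-fold. TRAM2, linked to type I collagen synthesis, fell (log2 change -0.40, SE 0.05). Of 5 lysyl oxidases, which cross-link collagen, LOX, LOXL1, LOXL2 and LOXL4 rose and 0 fell (median 0.45, and 0.09 under ribosomal protein scaling, where 0 rose or fell).

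Of 32 other matrix glycoproteins and proteoglycans 15 rose and 1 fell (median 0.41, and 0.05 under ribosomal protein scaling, where 3 rose and 2 fell). CYR61, a matricellular ligand of integrins induced as an immediate early gene, was the one that fell under TMM, 11.1-fold, with 36.0, 32.0 and 42.8 CPM at 4 h, against 448, 459 and 324 CPM at 0 h (log2 change -3.47, SE 0.16, edgeR adjusted p = 5.83e-09). HSPG2, which encodes perlecan of the basement membrane, rose 1.72-fold and stayed higher under ribosomal protein scaling (log2 change 0.42). Of 29 matrix proteases 16 rose and 2 fell, ADAMTS1 and ADAMTS6 (median 0.37, and 0.00 under ribosomal protein scaling, where 1 rose and 3 fell).

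Of 29 adaptors and signalling proteins of integrin adhesions 11 rose and 7 fell (median 0.22, and -0.14 under ribosomal protein scaling, where 0 rose and 12 fell). The shares that fell were near those of all tested genes under both scalings, and both medians lay above those of all tested genes. CRKL, a signalling adaptor, fell 2.61-fold, with 52.1, 48.5 and 57.5 CPM at 4 h, against 134, 143 and 135 CPM at 0 h. KANK1, a regulator of talin, fell 2.21-fold and the kinase gene SRC 1.71-fold, whereas TLN1, which encodes talin itself, had a log2 change of 0.41 and rose. Of 13 other matrix receptors 9 rose and 0 fell (median 0.28, and -0.09 under ribosomal protein scaling, where 1 rose and 0 fell), among them the tetraspanin CD151, with 277, 275 and 280.5 CPM at 4 h, against 184, 189.8 and 201 CPM at 0 h. Of 11 TGF-beta ligands, receptors and latent binding proteins TGFB1, LTBP2 and LTBP3 rose and 0 fell (median 0.14). The share that rose, 3 of 11, was near that of all tested genes. Under ribosomal protein scaling 0 rose and 2 fell, with a median of -0.22.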

How the data were processed

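The 12 libraries held polyadenylated RNA, purified with a Nucleospin kit and made into TruSeq stranded mRNA libraries, per the labels' protocols. The authors deposited raw read counts per gene symbol. The submitters' processing notes name FastQC, STAR and hg19 and give no versions. The counting program, the annotation and the use of strand are not given in the sources used here, so antisense and near-identical genes may share reads. Without a spike-in, all changes describe shares of the library.

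The deposited counts were tested with edgeR 4.0.16 (R 4.3.3) after filterByExpr by time point and TMM scaling. The 4 time groups shared their dispersion estimate, and the quasi-likelihood test was run for 1, 2 and 4 h against 0 h and for a slope per hour, with Benjamini-Hochberg adjustment over 12775 genes (threshold 0.05). An SE is the size of the log2 change over the square root of F. The script was tested on simulated data. Alternatives were a replicate block, RLE, library totals, scaling to ribosomal protein mRNAs, other filters, DESeq2 1.42.0 and each library left out in turn. The members, gene lists and naming rule were chosen with earlier results of these data known. The rule names 24 core members, the 6 largest changes per direction at 4 h with at least 5 CPM, members called at 1 h, 3 per role class by adjusted p, and 3 genes per other list. The values of 1 laminin gene are not reported here, although counts and medians include it. Genes the rule leaves out are named where a count or a family turns on them.

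To check pairing, each library's deviations from its group mean were correlated. The r was 0.26 to 0.65 between libraries of the same replicate number (18 pairs), so the numbers, which the labels give, pair the libraries. Between different numbers it was -0.50 to 0.16. Deviations within a time group sum to 0, so the lower r between different numbers partly follows from this and is no separate evidence. Replicates differed by more than sampling noise (chi-square per degree of freedom 4.27 to 15.8), and the labels call them biological without naming separate cultures, so p-values measure the spread between these libraries. UTRs came from 1 transcript per gene of GENCODE 29 (GRCh38, while the counts rest on hg19), read with Python 3.11.15, and all 68 genes matched. Totals of 9381855 to 10929000 counts per library give intervals for counting error only.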

Additional observations from a re-analysis of the deposited data

How the results depend on the processing

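The number of matrix and integrin genes lower than at 0 h was 0 at 1, 2 and 4 h and for the slope under every setting tried, except 1 for the slope (THBS1) without replicate 3 at every time point, an alternative chosen after the data were seen. The number higher at 1 h, 2 h, 4 h and for the slope was 0, 10, 37 and 41 in the main analysis. With the replicate block it was 8, 31, 48 and 50, and with library totals 0, 4, 21 and 25. With ribosomal protein scaling it was 0 throughout. At 4 h library totals moved the median of all tested genes by -0.15 against TMM, and ribosomal protein scaling moved it by -0.36. RLE gave 0, 10, 37 and 41, DESeq2 0, 10, 37 and 38, and no filter 0, 10, 38 and 40. Leaving out 1 library gave 0 at 1 h, 2 to 10 at 2 h, 31 to 39 at 4 h and 34 to 42 for the slope. For RLE, DESeq2, no filter and the fits with 1 library left out, the shares of all tested genes called are not given here. Of the 65 log2 changes above 0 at 4 h, 24 turned below 0 under ribosomal protein scaling and 7 under library totals. Among the genes of the naming rule those that turned under ribosomal protein scaling were TIMP3 (-0.29), COL1A1 (-0.29), COL1A2 (-0.13), COL3A1 (-0.0564), COL6A3 (-0.0362), ITGA5 (-0.0592), ITGAV (-0.0193), COL8A1 (-0.0855), THBS4 (-0.35) and TIMP4 (-0.0076). Others named in the text that turned there include LAMA3 (-0.15), LAMB3 (-0.30), ITGA2 (-0.22), ITGA6 (-0.09), ITGB8 (-0.23) and COL21A1 (-0.13). Under library totals TIMP3 (-0.0712), COL1A1 (-0.0776) and THBS4 (-0.14) turned among the genes of the rule, and THBS4 also under RLE (-0.0132) and DESeq2 (-0.0152). With 1 library left out THBS1 ranged from -0.30 to 0.10, COL1A1 from -0.0899 to 0.26, TIMP3 from -0.0215 to 0.17 and THBS4 from -0.22 to 0.26, so their signs are not fixed. The cause was not tested for these. Genes near 1 CPM have some 10 counts per library, and the SE of the log2 change at 4 h was 0.40 for THBS4 and 0.54 for COL4A6, against 0.05 for LAMB1, although COL9A2 and COL11A2, also near 1 CPM, passed for the slope.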
